A study of Mus musculus with 21 samples.

Results

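The nuclear genes of the oxidative phosphorylation complexes were examined in liver RNA of mice given an inhibitor of microRNA-122. A gene was a member if a probe set annotated to it alone had a symbol beginning with Nduf followed by a, b, c, s or v, with Uqcr, with Cox4 to Cox8 or with Atp5, or was Sdha, Sdhb, Sdhc or Sdhd. Where a gene had several such probe sets, the brightest on average was used, which gave 90 members of 18193 genes. They comprised 34 genes of complex I, 4 of complex II, 8 of complex III, 19 of complex IV, 17 of complex V and 8 assembly factors of complex I. The assembly factors (symbols beginning with Ndufaf) match the symbols but are not subunits, so 82 members are subunits. Ndufa4 and Ndufa4l2 carry complex I names and were counted with complex IV, where the Ndufa4 protein is found.

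The animals were female NMRI mice, an outbred stock. On day 2 they received 25 mg per kg of SPC3372, a locked nucleic acid oligonucleotide (antimiR-122) that binds microRNA-122, or saline as vehicle. Livers of 3 treated and 3 saline mice were taken at each of days 3, 9 and 23, so that 18 mice formed 6 groups. The saline mice of days 3 and 9 carry the same mouse numbers in the labels, and a number also recurs between the treated mice of these days. They were counted as different animals. The 21 Affymetrix arrays form 2 sets: the day 3 and day 9 comparisons lie in p0617 and that of day 23 in p0621, and the 3 treated day 23 mice were hybridised in both. Treated and saline mice shared the stock, the sex and the day of dosing.

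Complexes I to IV pass electrons from NADH and succinate through ubiquinone and cytochrome c to oxygen, and complexes I, III and IV pump protons across the inner mitochondrial membrane as they do so. Complex V, the ATP synthase, lets the protons back and makes ATP. Most subunits are encoded in the nucleus, a few central ones in mitochondrial DNA, and hepatocytes, which are rich in mitochondria, use the pathway to power urea, glucose and lipid synthesis.

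The deposited values are log2 levels per probe set, normalized by the authors with RMA, and a difference of 1 is a doubling. Of the 90 members, 84 had a mean level above that of the median probe set (4.79). The residual standard deviation between mice of a group had a median of 0.0781 over the members and 0.141 over all genes. In the 3 treated day 23 mice, the limma test of array set with the mouse as a block called 0 of 90 members and 0 of 18193 genes, while 6 members (6.67%) and 10.2% of all genes had an unadjusted p under 0.05. The actin control probe sets, whose 3′ minus 5′ difference in log2 units grows as RNA is degraded, gave 1.03 ± 0.0234 in treated and 0.805 ± 0.0454 in saline mice at day 3 (SD, n = 3 each). They gave 1.14 ± 0.0230 in treated and 0.926 ± 0.0601 in saline mice at day 9, and 1.15 ± 0.156 in treated and 1.16 ± 0.0396 in saline mice at day 23. The same difference of the Gapdh controls was 0.117 ± 0.184 in treated and 0.0685 ± 0.187 in saline mice at day 3, -0.0635 ± 0.0380 in treated and 0.151 ± 0.156 in saline mice at day 9, and 0.0284 ± 0.0253 in treated and 0.115 ± 0.0829 in saline mice at day 23. The part of these differences in the results was not tested.

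The members as a group were slightly lower in treated liver at each of the 3 days. Their median difference, treated minus saline, was -0.14 at day 3, -0.09 at day 9 and -0.14 at day 23 on the log2 scale, changes of -9.53%, -6.03% and -9.21%. Over all genes tested the medians were 0.01, -0.02 and -0.02. Of the members, 78 lie above the 75th percentile of level, and the medians of all 4548 genes there were -0.05, 0.00 and -0.02. The difference was negative in 80, 75 and 81 of the 90 members at days 3, 9 and 23. It was negative at all 3 days in 69 members (76.7%), against 19.6% of all genes and 29.0% of genes above the 75th percentile. RNA was taken from whole liver, where fewer cells of a type and less RNA per cell cannot be told apart.

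Few members passed the test at a single day, and none in the upward direction. With limma and Benjamini-Hochberg adjustment over 18193 genes (adjusted p under 0.05), 8 members fell at day 3, 2 at day 9 and 1 at day 23. The share of all genes called lower was 1.86% at day 3, 0.896% at day 9 and 0.198% at day 23, and called higher 2.62%, 1.91% and 0.187%. With the same adjustment, 3.91%, 2.00% and 0.44% of genes above the 75th percentile of level were called lower. Of the 78 members there, 8.97%, 2.56% and 1.28% were. At an unadjusted p under 0.05, 39 members were lower and 0 higher at day 3, 18 lower and 1 higher at day 9, and 36 lower and 0 higher at day 23. Over all genes, 9.08% were lower and 9.19% higher at this level at day 3, 8.15% and 8.62% at day 9, and 7.99% and 5.88% at day 23. Of the 4548 genes above the 75th percentile, 836 were lower and 518 higher at day 3. The counts were 534 and 667 at day 9, and 579 and 466 at day 23. Of the 78 members there, 38, 16 and 34 were lower at days 3, 9 and 23. The members called on at least 1 day were Ndufv1, Ndufb5, Ndufb9, Ndufb10, Sdhc, Uqcr10, Uqcrc2, Cox7a1 and Ndufaf2. Only Ndufb5, at days 3 and 9, and Uqcr10, at days 9 and 23, were called on more than 1 day. When every probe set was tested, probe sets not used here also passed for Atp5o (days 3 and 9), Cox5b, Ndufaf4 and Ndufab1 (day 3) and Cox6c (day 9), all lower.

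These daily counts changed when 1 array was left out, and so did the counts over all genes. Leaving out treated mouse 1, 2 or 3 left 2, 4 or 11 members called at day 3, and leaving out saline mouse 1, 2 or 3 left 7, 4 or 3. At day 9, 0 remained called without treated mouse 1, treated mouse 3 or saline mouse 1, and 1 without each of the other mice. At day 23, 1 remained without saline mouse 1 and 0 without any other mouse. A fit on only a comparison's own arrays called 1, 0 and 0 members at days 3, 9 and 23. With 1 array left out, 0.676% to 1.82% of all genes were called lower at day 3. The range was 0.242% to 0.698% at day 9 and 0.011% to 0.192% at day 23. With only a comparison's own arrays, 0.374%, 0.187% and 0% of all genes were called lower at the 3 days.

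The mean of the 3 daily differences uses all 18 arrays, and on it 37 of 90 members fell and 0 rose. That is 41.1% of the members, against 5.97% of all genes called lower and 5.59% called higher. The median difference was -0.12 over the members, a change of -8.12%, and -0.01 over all genes. Leaving out 1 array gave 23 to 41 calls, with the lowest count without treated mouse 2 of day 3. In these fits 4.71% to 6.08% of all genes were called lower. Brightly hybridising genes were called more often: of the 4548 genes above the 75th percentile of level, 13.8% were called lower, against 36 of the 78 members among them (46.2%). With those genes tested alone in a setting chosen after the data were seen, 51 of 78 members were called lower, beside 20.0% of those genes. Just inside the threshold lay Ndufb8, a membrane arm subunit of complex I (-0.18, adjusted p = 0.0483), and just outside it Ndufaf6 (-0.21, adjusted p = 0.0523).

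**Figure D1:**
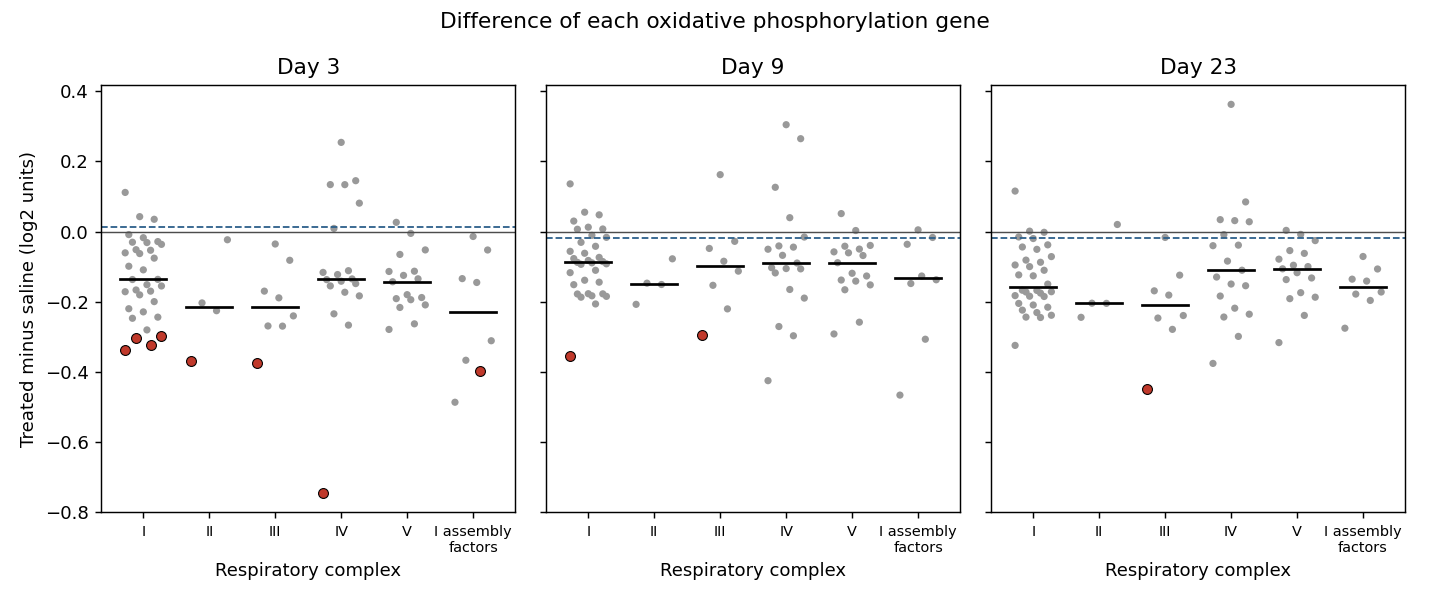
Treated minus saline log2 difference of each of the 90 genes (points) by complex at days 3, 9 and 23; red points passed limma's test (adjusted p under 0.05), black bars are medians of a complex and the dashed line is the median of all genes. Most points lie below 0 at each day, and the 8, 2 and 1 red points are all negative.

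The separation of the groups was more frequent than the calls. All 3 treated mice lay below all 3 saline mice in 42 members at day 3, 44 at day 9 and 46 at day 23, beside 10.3%, 11.2% and 11.1% of all genes. Of the 4548 genes above the 75th percentile of level, 918, 741 and 806 had this order. Of the 78 members there, 41, 43 and 45 had it. The opposite order was seen in 0, 2 and 0 members, the 2 being Cox6a2 and Cox7b2 at day 9, neither called. In 22 members (225 genes in all, 1.24%) the treated mice lay wholly below the saline mice at each of the 3 days.

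Averaged over the 84 members above the median probe set and set against the saline mean of the day, the treated mice stood at -0.21, -0.15 and -0.09 at day 3, and the saline mice between -0.04 and 0.03. At day 9 the treated mice stood between -0.11 and -0.08 and the saline mice between -0.02 and 0.03. At day 23 the treated mice stood between -0.14 and -0.13 and the saline mice between -0.05 and 0.03. The groups did not overlap on any day. The treated mice of day 3 were spread the widest of the 3 treated groups.

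**Figure D2:**
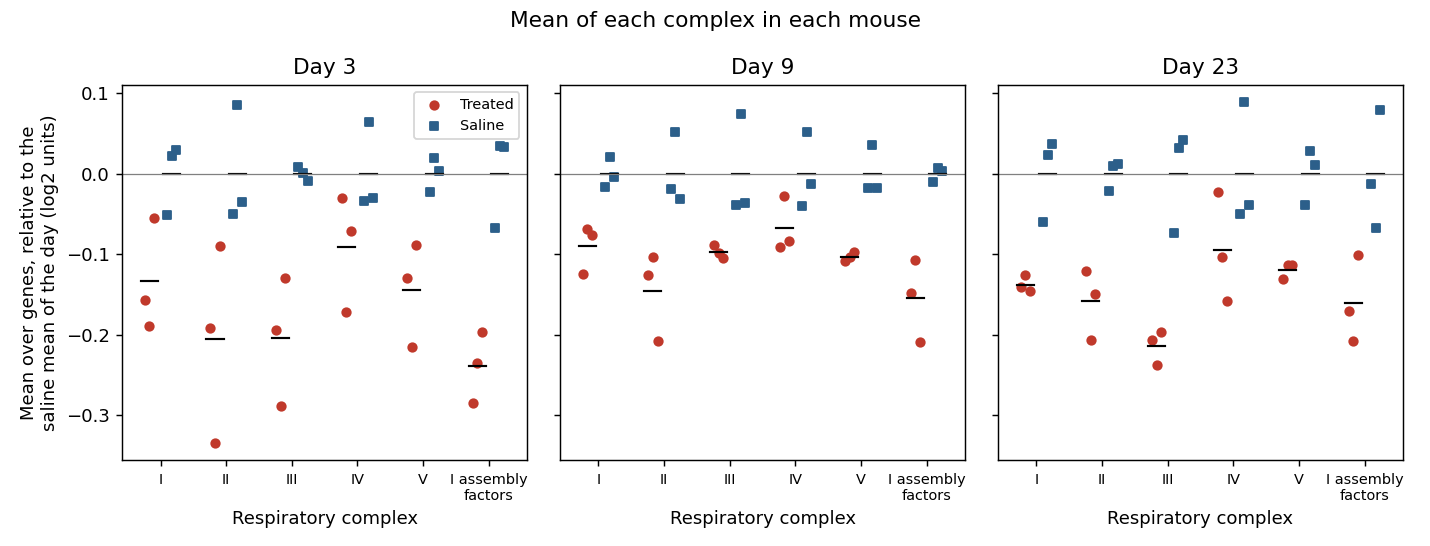
Mean log2 level of the genes of each complex above the median probe set (84 in all) in each mouse, relative to the saline mean of the day, for treated mice (circles, left) and saline mice (squares, right); black bars are group means of 3 mice. Treated mice lie below saline mice in every complex and day except complex IV, where the groups overlap at each day. The complex IV mean was taken over 14 genes, among them Cox6b2, the most variable member (residual standard deviation 0.542). At days 3, 9 and 23 the treated mouse with the highest complex IV mean also had the highest Cox6b2 level (8.16, 9.29 and 9.05). The part of Cox6b2 in the overlap was not tested.

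Complex I, the NADH dehydrogenase, was lower in 14 of its 34 members on the mean of the days, with 0 higher and a median difference of -0.12. Its catalytic core, which carries the flavin and the iron-sulfur clusters, fell in 4 of 6 measured members. These were Ndufv1, the flavin and NADH-binding subunit (-0.23 ± 0.04, SE, adjusted p = 0.00206), and the iron-sulfur subunits Ndufs1 (-0.15, adjusted p = 0.0258) and Ndufs8 (-0.15, adjusted p = 0.0405), with Ndufs3, a core subunit of the matrix arm (-0.15, adjusted p = 0.0274). Of the 28 accessory subunits, which surround the core, 10 fell.

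Ndufv1 had 11.26, 11.28 and 11.45 log2 units in the treated mice of day 3, against 11.65, 11.65 and 11.66 in the saline mice. The groups did not touch, and treated mouse 3 lay nearest to the saline mice. The difference was -0.32 ± 0.07 (SE, limma adjusted p = 0.0167), a change of -20.0%. It was -0.18 at both day 9 and day 23, where it did not pass the test. All 3 probe sets of Ndufv1 had a negative difference at day 3, from -0.41 to -0.29.

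Ndufb5, an accessory subunit of the membrane arm, had 11.44, 11.50 and 11.35 in the treated mice of day 9, against 11.84, 11.80 and 11.73 in the saline mice. Every treated mouse lay below every saline mouse, and the difference was -0.36 ± 0.07 (SE, limma adjusted p = 0.0165). At day 3 it was -0.30 (adjusted p = 0.0275) and at day 23 -0.09 (adjusted p = 0.661). The other probe set of Ndufb5 had -0.25 at day 23, so the smaller difference of that day was not shared by both.

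Ndufb10 and Ndufb9, accessory subunits of the same arm, followed at day 3. Ndufb10 had 10.83, 10.87 and 10.89 in treated mice against 11.15, 11.15 and 11.31 in saline mice, a difference of -0.34 ± 0.07 (SE, limma adjusted p = 0.0101). Ndufb9 had 12.20, 12.14 and 12.33 in treated mice against 12.43, 12.57 and 12.59 in saline mice, a difference of -0.30 ± 0.07 (SE, limma adjusted p = 0.0257). Both were wholly lower in treated mice at all 3 days.

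Of the 34 members of complex I, 31 had a negative mean difference and 3 a positive one. Ndufa12, an accessory subunit at the matrix arm, had differences of 0.04, 0.01 and 0.12 at days 3, 9 and 23, and Ndufa2 had 0.03, 0.03 and 0.00, none past the test. Ndufa13, an accessory subunit also known as GRIM-19, had negative values of -0.20, -0.01 and -0.08, none past the test. Ndufb4 was represented by a dim probe set (mean level 3.48), which limits what can be measured of it.

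Complex II, succinate dehydrogenase, also belongs to the citric acid cycle. On the mean of the days 3 of its 4 subunits fell: Sdhc (-0.27, adjusted p = 0.00145) and Sdhd (-0.19, adjusted p = 0.0292), the membrane anchors, and Sdhb, the iron-sulfur subunit (-0.19, adjusted p = 0.0160). Sdha, the flavoprotein that oxidises succinate, had -0.03 (adjusted p = 0.768), and its daily differences ran from -0.08 to 0.02.

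Sdhc was the complex II gene called at a single day. It had 10.68, 10.57 and 10.81 in the treated mice of day 3, against 10.99, 11.13 and 11.04 in the saline mice, a difference of -0.37 ± 0.08 (SE, limma adjusted p = 0.0170). The groups were also apart at day 9 (-0.21, adjusted p = 0.214) and at day 23 (-0.24, adjusted p = 0.184). Sdhd was likewise wholly lower in treated mice at each day.

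Complex III, the cytochrome bc1 complex, fell in 5 of 8 members on the mean of the days, with a median of -0.16 and no positive value. They were Uqcr10, a small subunit that spans the membrane (-0.34, adjusted p = 0.000110), Uqcrh, the hinge protein next to cytochrome c1 (-0.25, adjusted p = 0.00118), Uqcrfs1, the Rieske iron-sulfur protein (-0.22, adjusted p = 0.00852), Uqcrc1, a core protein (-0.17, adjusted p = 0.0334), and Uqcr11, another small subunit (-0.16, adjusted p = 0.0273). Uqcrb, a ubiquinone-binding subunit, had -0.03 (adjusted p = 0.753).

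Uqcr10 was the only member called at day 23. It had 11.31, 11.26 and 11.33 in the treated mice, against 11.69, 11.80 and 11.76 in the saline mice. All treated mice lay well below the saline mice, with a difference of -0.45 ± 0.08 (SE, limma adjusted p = 0.0256), a change of -26.8%. At day 9 it had 11.36, 11.36 and 11.38 in treated mice against 11.58, 11.75 and 11.66 in saline mice, a difference of -0.29 (adjusted p = 0.0446). At day 3 it was -0.27 (adjusted p = 0.0504), just outside the threshold. The call of day 23 was lost without each array but saline mouse 1, and that of day 9 without each of the 6 arrays. Its 2 other probe sets were dim and gave -0.38 and -0.15 at day 23.

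Uqcrc2, the other core protein, was called at day 3 only. It had 10.24, 10.20 and 10.39 in the treated mice of day 3, against 10.77, 10.62 and 10.57 in the saline mice, a difference of -0.38 ± 0.10 (SE, limma adjusted p = 0.0393). At day 9 it had 11.05, 11.05 and 10.98 in treated mice against 10.83, 11.12 and 10.64 in saline mice, groups that overlap (0.16, adjusted p = 0.442). The 2 effects differed by 0.54 ± 0.14 (SE, day 9 minus day 3, adjusted p = 0.162), which did not pass the test. The second probe set of Uqcrc2 gave -0.51 at day 3 and 0.13 at day 9.

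Complex IV, cytochrome c oxidase, was split in the sign of its differences. On the mean of the days 6 of 19 members fell, and the median was -0.12. Several of its subunits exist in forms used by different tissues, and the split followed them, in a grouping made after the values were seen. All 11 general or liver forms had negative differences (median -0.14, from -0.23 to -0.08) and 5 of them fell. Of the 8 forms known mainly from other tissues or from hypoxia, 6 had positive differences, none past the test, and 1 fell. The median of the 8 was 0.02, and 5 of them had a mean level below the median probe set.

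The general forms that fell were Ndufa4 (-0.23, adjusted p = 0.00964), Cox7a2l, which joins complexes III and IV into supercomplexes (-0.22, adjusted p = 0.0182), Cox5b (-0.18, adjusted p = 0.0101), Cox6c (-0.15, adjusted p = 0.0247) and Cox4i1, the largest nuclear subunit (-0.14, adjusted p = 0.0224). Cox5a had -0.14 (adjusted p = 0.0785), Cox8a -0.12 (adjusted p = 0.0765), Cox6b1 -0.12 (adjusted p = 0.140), Cox6a1, the liver form, -0.11 (adjusted p = 0.115) and Cox7a2, the liver form, -0.08 (adjusted p = 0.272). Cox7c had -0.12 (adjusted p = 0.531) on a dim probe set. Ndufa4 had its largest difference at day 23, with 11.63, 11.54 and 11.37 in treated mice against 11.85, 11.88 and 11.93 in saline mice (-0.38, adjusted p = 0.0719), which did not pass the test.

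Cox7a1, the heart and muscle form of subunit 7a, was read from a dim probe set, with values near or below the median probe set (4.79) in every mouse. It had 4.02, 4.11 and 3.73 in the treated mice of day 3, against 4.63, 4.68 and 4.79 in the saline mice. The groups did not overlap, and the difference was -0.75 ± 0.12 (SE, limma adjusted p = 0.00154). It was -0.43 at day 9 (adjusted p = 0.0694) and -0.30 at day 23 (adjusted p = 0.268), and the groups did not overlap on either day. Whether the probe set measured above background was not tested, so these differences are not given as fold changes of the RNA.

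The markers of skeletal muscle (Ckm, Acta1, Myh1, Myh4, Tnnt3 and Mylpf) were set beside this result. Their mean lay between 3.92 and 4.05 in treated and between 3.98 and 4.09 in saline mice at day 3, 4 of 6 were below the median probe set, and 0 of 6 were called at any day. The other muscle forms differed from Cox7a1. Cox8b had 0.00 (adjusted p = 0.990) and Cox6a2 0.10 (adjusted p = 0.401) on the mean of the days. Cox4i2, the lung form, had 0.02 (adjusted p = 0.889), and Ndufa4l2, which is induced by hypoxia, also 0.02 (adjusted p = 0.889).

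Cox6b2, the testis form of subunit 6b, had positive differences of 0.25, 0.31 and 0.36 at days 3, 9 and 23 that were within the spread between mice (adjusted p = 0.794, 0.742 and 0.734). At day 3 it had 8.16, 7.31 and 7.04 in treated mice against 6.74, 7.80 and 7.20 in saline mice. It was the most variable member, with a residual standard deviation of 0.542 between mice.

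Complex V fell in 7 of 17 members on the mean of the days, with a median of -0.12 and 17 of 17 differences negative. Its subunits were grouped by place in the enzyme after their values were seen. The head that makes ATP fell in 4 of 5 subunits: gamma (Atp5c1, -0.16, adjusted p = 0.0226), beta (Atp5b, -0.14, adjusted p = 0.0310), alpha (Atp5a1, -0.14, adjusted p = 0.0357) and epsilon (Atp5e, -0.13, adjusted p = 0.0481). With each of the 18 arrays left out in turn, gamma was called in every fit, while beta was lost in 8, alpha in 12 and epsilon in 16. Of the 4 subunits of the peripheral stalk, which holds the head still, 2 fell: Atp5o, the subunit that joins stalk and head (-0.29, adjusted p = 0.000602), and Atp5pb, subunit b (-0.20, adjusted p = 0.00713).

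None of the 3 genes of the c ring, the rotor driven by protons, passed the test. Atp5g1 had -0.12 (adjusted p = 0.0736), Atp5g2 -0.08 (adjusted p = 0.295) and Atp5g3 -0.02 (adjusted p = 0.819). Of the other 5 membrane subunits, Atp5k, subunit e, fell (-0.20, adjusted p = 0.00910).

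No complex V gene was called at a single day on the probe set used. Atp5o had the smallest adjusted p, with 11.24, 11.27 and 11.24 in the treated mice of day 3, against 11.51, 11.63 and 11.45 in the saline mice (-0.28 ± 0.08, SE, limma adjusted p = 0.0507). At day 23 it had 11.24, 11.17 and 11.19 in treated mice against 11.43, 11.62 and 11.51 in saline mice (-0.32, adjusted p = 0.0719). Its groups were apart at all 3 days. The other probe set of Atp5o, less bright, gave -0.49 at day 3 and -0.34 at day 9, and both passed when every probe set was tested (adjusted p = 0.00224 and 0.0347). At day 23 it gave -0.17.

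Of the 8 assembly factors of complex I, 2 fell on the mean of the days, Ndufaf1 (-0.34, adjusted p = 0.00794) and Ndufaf2 (-0.28, adjusted p = 0.00101), both needed to build the complex without staying in it. Ndufaf2 was called at day 3, with 7.78, 7.75 and 7.66 in treated mice against 7.97, 8.20 and 8.21 in saline mice (-0.40 ± 0.08, SE, limma adjusted p = 0.00891). Its treated mice lay below the saline mice at each day. With Cox7a1 it was 1 of 2 calls of day 3 that held whichever array was left out. Ndufaf8 had -0.07 (adjusted p = 0.388) on the mean of the days.

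**Figure D3:**
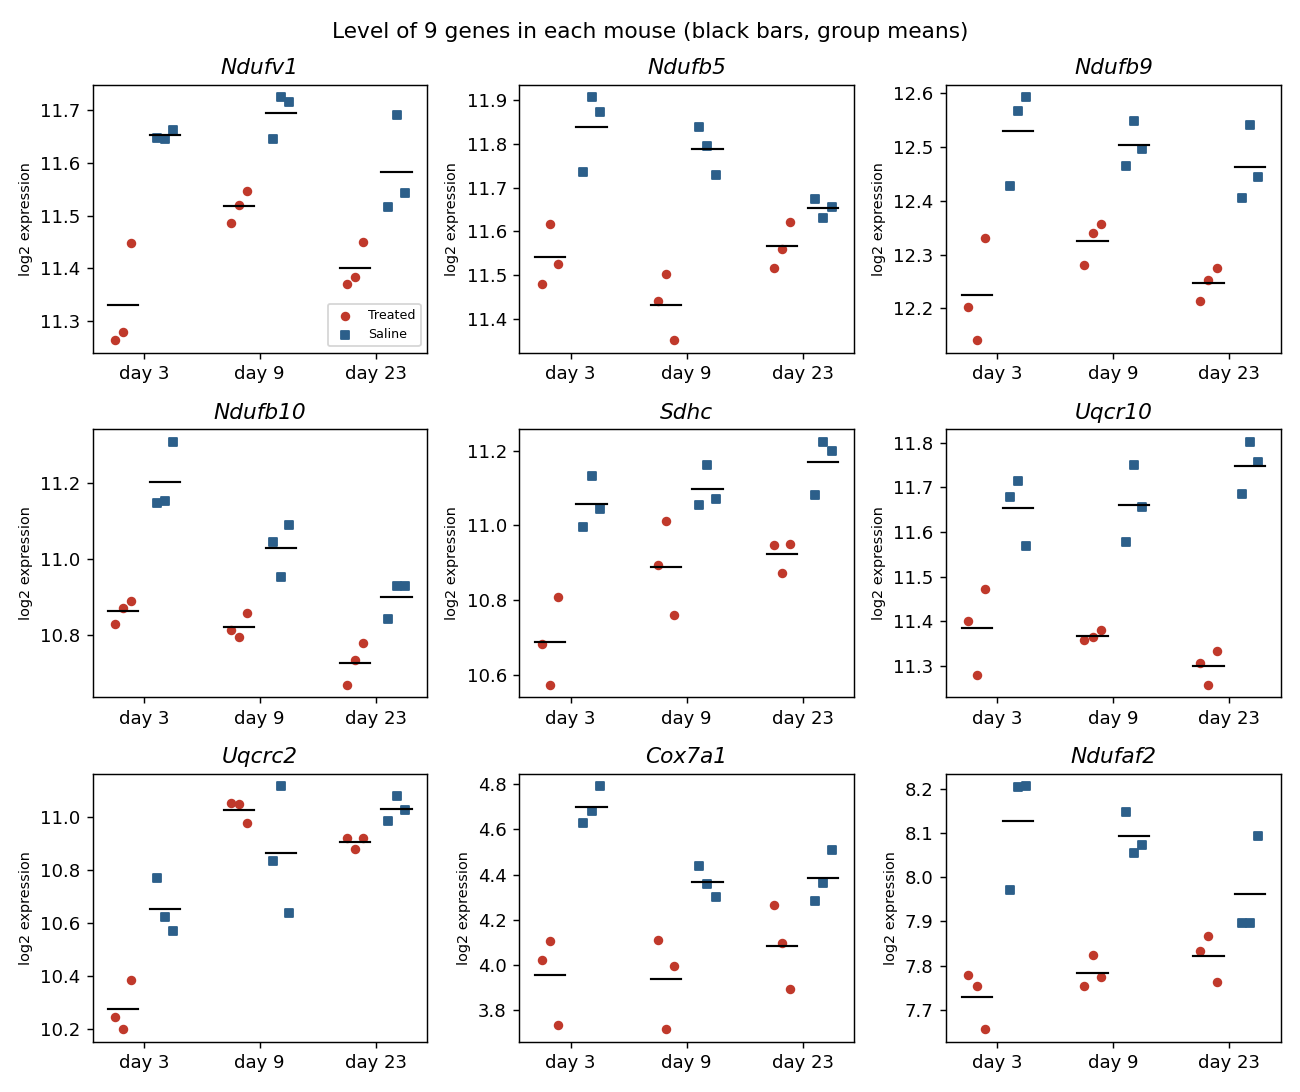
Log2 level of the 9 genes called on at least 1 day in each treated (circles, left) and saline mouse (squares, right) at days 3, 9 and 23, each panel with its own axis. Treated mice lie below saline mice at every day in all panels except Uqcrc2 at day 9.

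The daily effects were not shown to differ. The test of day 9 against day 3 called 0 of 90 members (0.0934% of all genes lower), with 2 members at an unadjusted p under 0.05, Uqcrc2 and Cox8c (2.22%, against 11.6% of all genes). That of day 23 against day 3 also called 0 members (0.242% of all genes lower), with 4 at an unadjusted p under 0.05 (4.44%, against 10.2% of all genes). Cox7a1 had the smallest p of these, its effect at day 23 being closer to 0 by 0.45 (adjusted p = 0.362).

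Between saline mice, day 9 differed from day 3 in 1 member (3.11% of all genes were lower), and the members' median difference was 0.01. Ndufaf4, an assembly factor, had 8.86, 8.84 and 8.53 in the saline mice of day 9, against 9.72, 9.57 and 9.64 in those of day 3 (-0.90 ± 0.17, SE, limma adjusted p = 0.00383). In treated mice of day 3 it had 9.08, 9.39 and 9.00, below the saline mice of that day (-0.49, adjusted p = 0.125). Its other probe set gave -0.56 at day 3, which passed when every probe set was tested (adjusted p = 0.0163). Its treated and saline mice overlapped at days 9 and 23.

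Genes next to the complexes were counted on the mean of the days. Cyc1, the cytochrome c1 of complex III, and Cycs, cytochrome c, both fell (-0.28, adjusted p = 0.00202, and -0.16, adjusted p = 0.0198). Of 34 other assembly factors 8 fell and 2 rose, with Cox11, which delivers copper to complex IV, at -0.36 (adjusted p = 0.000178), and Acad9, a complex I assembly factor, at 0.79 (adjusted p = 0.0216). Of 76 genes of the mitochondrial ribosome 39 fell and 4 rose (median -0.15). Of 15 regulators 4 fell and 0 rose: Twnk, the mitochondrial DNA helicase (-0.25, adjusted p = 0.0124), Tfb1m, a methyltransferase of mitochondrial ribosomal RNA (-0.30, adjusted p = 0.00843), Tfam, which packages mitochondrial DNA (-0.15, adjusted p = 0.0239), and Polrmt, the mitochondrial RNA polymerase (-0.16, adjusted p = 0.0157). ND5, a complex I subunit encoded in mitochondrial DNA and chosen after its values were seen, had 0.13, 0.15 and 0.17 at days 3, 9 and 23, none past the test.

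The citric acid cycle was divided, with 5 of 13 genes lower and 4 higher. Cs, citrate synthase, rose by 0.47 (adjusted p = 0.000137), Idh3a by 0.43 (adjusted p = 0.000192), Idh3g by 0.56 (adjusted p = 6.04e-06) and Suclg2 by 0.29 (adjusted p = 0.000361). Idh3b fell by 0.27 (adjusted p = 0.000321), although Idh3a, Idh3b and Idh3g encode subunits of the same enzyme, the NAD-dependent isocitrate dehydrogenase. The other genes that fell were Dld, Fh1, Suclg1 and Dlst, by 0.23 to 0.26. By day, 4 genes were lower and 4 higher at day 3, 0 and 4 at day 9, and 0 and 0 at day 23. Cs had 0.63, 0.62 and 0.15 at days 3, 9 and 23, Idh3a 0.45, 0.63 and 0.21, and Idh3g 0.80, 0.69 and 0.20. At day 3 Idh3g had 10.84, 10.82 and 11.07 in treated mice against 10.16, 10.16 and 10.03 in saline mice, and Idh3b had 11.24, 11.20 and 11.35 in treated mice against 11.57, 11.66 and 11.67 in saline mice. The groups did not overlap in either gene.

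Atpif1, the inhibitor of complex V, rose by 0.67 ± 0.07 (SE, limma adjusted p = 2.52e-05). It had 9.76, 9.63 and 9.94 in the treated mice of day 3, against 8.75, 9.00 and 9.12 in the saline mice (0.82, adjusted p = 0.00121). At day 9 the difference was 0.62 (adjusted p = 0.0165) and at day 23 0.56 (adjusted p = 0.0555), which did not pass. The treated mice lay above the saline mice at each day. Of the other 7 genes of exchange and uncoupling, Slc25a3, the phosphate carrier, fell by 0.15 (adjusted p = 0.0188).

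**Figure D4:**
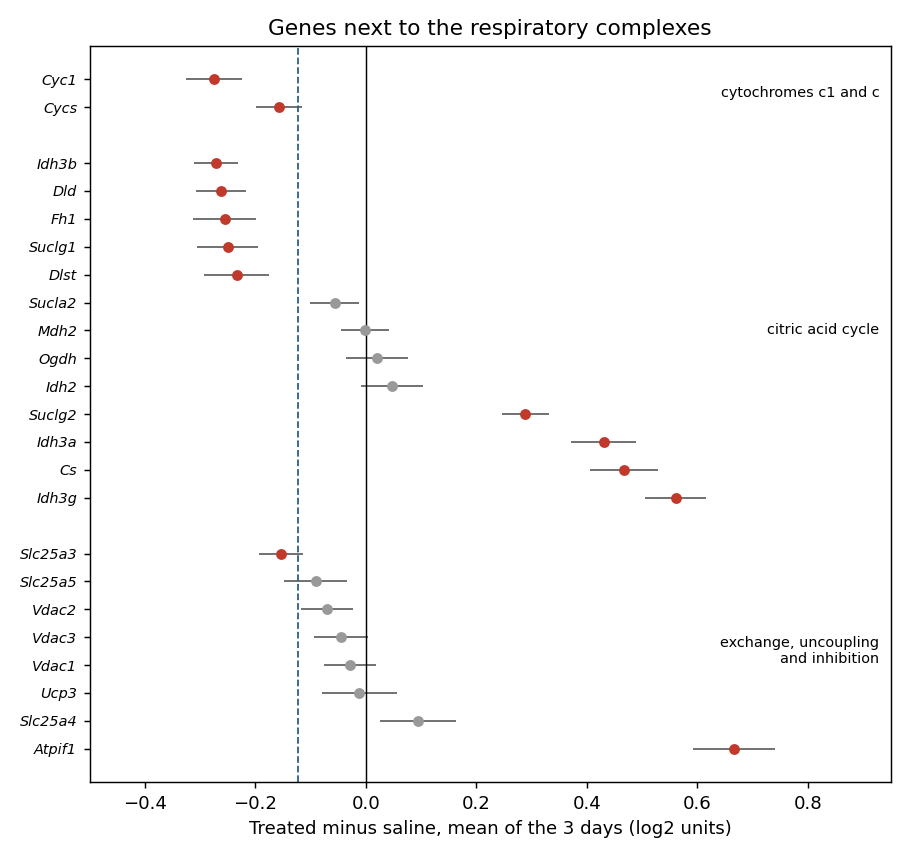
Treated minus saline log2 difference (mean of the 3 days, bars are SE) of Cyc1, Cycs, citric acid cycle and exchange and uncoupling genes. Other assembly factors, regulators and the mitochondrial ribosome are not plotted. Red points passed limma's test (adjusted p under 0.05). The dashed line is the median of the 90 oxidative phosphorylation genes, -0.12. Among the red points, Atpif1, Idh3g, Cs, Idh3a and Suclg2 lie on the positive side, opposite to the complexes, and the others on the negative side.

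Markers of other liver cells also differed. Among 10 genes that mark Kupffer cells and macrophages, 7 rose at day 3, 0 at days 9 and 23, and 4 on the mean of the days (median 0.43). Their mean lay between 9.40 and 10.02 in treated and between 8.18 and 9.25 in saline mice at day 3. It lay between 8.84 and 8.94 in treated and between 8.48 and 8.86 in saline mice at day 9, and between 8.89 and 9.14 in treated and between 8.94 and 8.98 in saline mice at day 23. Of 8 lymphocyte markers, 3 rose at day 3 and on the mean of the days: Ccl5, Gzma and Gzmb, by 1.52, 1.40 and 1.12 at day 3. Of 6 endothelial markers, Clec4g rose at days 3 and 9 (0.60 and 0.48). On the mean of the days Clec4g and Kdr rose (0.38 and 0.18) and Stab2 fell (-0.30). Of 6 stellate markers, Reln and Dcn rose at day 9 (0.63 and 0.57), and Des fell on the mean of the days (-0.18). Of 4 cholangiocyte markers, Epcam rose at day 3 (0.32). Of 7 hepatocyte markers 0 fell at any day, while Pck1 rose at days 3 and 9 (0.76 and 0.74) and Apob at day 9 (0.98); the list's median difference was 0.03 at day 3. The part of these markers in the members' differences was not tested.

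The promoters of the members were read because the members moved together. RefSeq start windows of the build GRCm38.p6, each with 250 bases before and 50 after the start of a gene, were given for 74 of the 90 members (79 windows). GCATGCGC, the core of the motif of the factor NRF1, stood on either strand in 13.9% of member windows and in 2.71% of all 32851 windows. CCGGAAG, a motif of ETS factors such as GABP, stood in 24.1% of member windows and in 8.86% of all. The genes of these factors, Nrf1, Gabpa and Gabpb1, were among the 15 regulators. They were not called on any day or on the mean of the days. GCANGCGC, a looser form of the first motif chosen after the windows were read, stood in 35.4% of member windows and in 9.61% of all. Member windows had a median GC content of 59.0%, against 52.7% in all windows. Among the members lower on the mean of the days, 12.5% of 32 windows held GCATGCGC, 31.2% CCGGAAG (10 windows) and 31.2% GCANGCGC. Among the other members, 14.9% of 47 windows held GCATGCGC, 19.1% CCGGAAG (9 windows) and 38.3% GCANGCGC.

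The 250 bases before the start are shown for 5 members that fell and hold a match there, with Ndufb5 at chr3:32736813-32737062 (plus strand), Sdhb at chr4:140961021-140961270 (plus strand), Sdhd at chr9:50603850-50604099 (minus strand), Uqcrh at chr4:116075071-116075320 (minus strand) and Atp5k at chr5:108434400-108434649 (minus strand). They are written 5′ to 3′ on the strand of the gene, and capitals mark the matches to any of the 3 motifs on either strand, which can overlap.
Ndufb5: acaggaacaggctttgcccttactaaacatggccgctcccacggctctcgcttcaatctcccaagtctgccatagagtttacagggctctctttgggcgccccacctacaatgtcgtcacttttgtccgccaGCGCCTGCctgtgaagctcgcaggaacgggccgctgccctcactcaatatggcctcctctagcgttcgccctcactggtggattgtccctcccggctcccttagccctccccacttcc
Sdhb: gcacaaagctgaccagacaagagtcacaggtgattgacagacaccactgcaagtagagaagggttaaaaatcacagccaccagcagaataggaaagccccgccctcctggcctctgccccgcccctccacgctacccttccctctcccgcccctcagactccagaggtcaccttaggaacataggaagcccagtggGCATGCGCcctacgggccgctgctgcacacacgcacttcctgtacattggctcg
Sdhd: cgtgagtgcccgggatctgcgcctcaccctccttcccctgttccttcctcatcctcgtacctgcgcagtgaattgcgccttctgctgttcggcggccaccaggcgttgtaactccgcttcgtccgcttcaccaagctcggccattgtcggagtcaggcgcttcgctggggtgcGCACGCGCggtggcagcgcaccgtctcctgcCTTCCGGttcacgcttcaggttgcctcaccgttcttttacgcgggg
Uqcrh: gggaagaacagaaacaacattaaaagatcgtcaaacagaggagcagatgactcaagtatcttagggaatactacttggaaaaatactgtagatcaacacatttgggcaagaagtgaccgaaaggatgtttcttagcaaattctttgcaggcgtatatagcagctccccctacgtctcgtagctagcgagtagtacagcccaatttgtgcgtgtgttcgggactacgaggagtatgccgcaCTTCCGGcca
Atp5k: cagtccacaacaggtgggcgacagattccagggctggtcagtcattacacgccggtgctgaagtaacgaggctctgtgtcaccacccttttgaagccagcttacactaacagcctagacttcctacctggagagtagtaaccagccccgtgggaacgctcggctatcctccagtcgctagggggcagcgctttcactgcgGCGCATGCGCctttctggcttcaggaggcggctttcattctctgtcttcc
The match in Sdhb is the strict GCATGCGC. In Atp5k this motif matches on both strands, overlapping in one run of capitals. Sdhd holds GCACGCGC and, nearer the start, CCGGAAG on the other strand, which is the only match in Uqcrh. Ndufb5 holds only the looser form, on the other strand.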

How the data were processed

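Liver RNA was hybridised to 21 one-colour Affymetrix arrays, 15 in set p0617 and 6 in p0621. The deposited values are log2 levels per probe set that the authors made with RMA, per the submitters' processing notes; no version is named, and the arrays that shared a normalization run were not stated. RMA shrinks differences of dim probe sets. The platform annotation gave 1 symbol to 34945 of 45101 probe sets. Promoter windows came from RefSeq, matched by gene ID or symbol.

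Group means of 18 arrays, 1 per mouse, were fitted with limma (version 3.58.1, lmFit and eBayes, 12 residual and 4.85 prior degrees of freedom). Treated minus saline was tested at each day, two-sided, with Benjamini-Hochberg adjustment over 18193 genes. The labels call the 3 mice of a group biological replicates, and their number limits the precision. The correlations of the deviations of same-numbered treated and saline mice lay between -0.14 and 0.08, so no strong shared deviation was seen. They cannot exclude a pairing by design, and no pairing was used in the fit.

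The members and all gene lists were chosen with earlier results of these data known. Named members were those called at a day (up to 10 each way), the member of highest level and of largest mean difference of each complex, 34 subunits always named, and up to 4 called genes per other list and day. Ndufs3, Ndufa2, Ndufa12, Ndufb4, Ndufb8, Uqcrh, Uqcr11, Cox7b2, Cox8c, Atp5pb, Atp5g1, Atp5g2, Ndufaf4, Ndufaf6, Ndufab1 and ND5 were chosen after their values were seen, as were genes of other lists called on the mean of the days alone. Nrf1, Gabpa and Gabpb1 were named beside the promoter motifs, also with their values known. The alternatives were another fit sample, quantile normalization, median centring, filters on dim genes, other uses of the probe sets, a variance trend over intensity with robust moderation, the replicate block, the other array set and leaving out each array. Simulated data with planted changes were used to test the limma step. Software was R 4.3.3 with data.table (version 1.17.8), and Python 3.11.15 with matplotlib 3.10.9. Genes measured only by probe sets of several genes were left out, and protein sequences were not used here.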

Additional observations from a re-analysis of the deposited data

How the results depend on the processing

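No called change of a named member reversed under any alternative. A called change could hardly reverse when 1 array was dropped, and this check did not cover the sign of uncalled members. Over the settings with 1 value for each of the 90 members, 73 to 81 differences were negative at day 3. The range was 70 to 78 at day 9 and 77 to 83 at day 23. The counts of calls at single days varied with the setting. At days 3, 9 and 23, 8, 2 and 1 members were called. Only a comparison's own arrays gave 1, 0 and 0 calls, and genes above the median level 16, 6 and 5. Genes above the 75th percentile of level (chosen after seeing the data) gave 22, 9 and 12, and a variance trend with robust moderation 17, 6 and 5. The shares of all genes tested that were called lower moved too, from 1.86%, 0.896% and 0.198%. They were 0.374%, 0.187% and 0% with own arrays only, and 6.08%, 2.63% and 2.25% above the median level. Above the 75th percentile they were 9.04%, 5.26% and 5.17%, and with the variance trend 2.24%, 1.04% and 0.665%. Averaging the probe sets of a gene gave 4 at day 9 and 0 at day 23 (0.797% and 0.192% of all genes lower). Median centring gave 1 at day 9 (0.797%). The p0617 hybridisations of the treated mice gave 3 at day 23 (0.511%). These were set against saline mice of p0621, so treatment and array set cannot be told apart there. Leaving out each array in turn gave 2 to 11 calls at day 3, 0 to 1 at day 9, 0 to 1 at day 23, 23 to 41 on the mean of the days, 0 to 1 for day 9 against day 3, and 1 to 2 between saline days. With the replicate block, 7, 1 and 0 members were called at days 3, 9 and 23 (1.57%, 0.687% and 0.033% of all genes lower). The block gave 35 calls on the mean of the days and 2 between saline days. The correlations of same-numbered mice gave this block no backing. The count between saline days was 1 in the fit reported, and 2 with averaged probe sets, every probe set and each of the filters. For day 23 against day 3 it was 0, and 1 with every probe set. The causes were not tested, except that fewer genes were tested under the filters. The 37 calls on the mean of the days were 29 with quantile normalization, 28 of them shared, and stayed within 1.5 times under every other setting but the fit without treated mouse 2 of day 3. Dim probe sets limit what can be said of Cox7a1, Cox7c, Ndufb4 and the other-tissue forms of complex IV. Among the named members called on the mean of the days, leaving out 1 of 18 arrays lost Atp5e in 16 fits, Ndufs8 in 13, Atp5a1 in 12, Uqcrc1 in 9, Atp5b in 8, Sdhd in 7, and Cox6c and Ndufs1 in 3 each.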
